A study of Mus musculus with 764 samples.

Results

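The spleen cells of plate p2 were compared with the spleen cells that filled well columns 13 to 24 of plate p1. Both sets were IL-10+ CD4+ T cells, sorted 1 cell per well from mice that carry an eGFP reporter of Il10 and an mRFP reporter of Foxp3, and that had been injected with an antibody against CD3, which activates and expands T cells. SMART-seq2, the protocol used for every cell, copies full-length polyadenylated RNA without molecular identifiers. The p2 spleen cells sat in well columns 1 to 12, and small intestine cells from the same treatment sat in columns 13 to 24 of the same plate. Members were chosen by plate code and well alone, with a minimum of 160000 reads on gene rows, which kept 363 of the 382 cells of both sets, of 764 cells in the series. The limit left out 13 p2 cells (93.2% kept) and 6 cells of p1 columns 13 to 24 (96.8% kept), and the kept cells of these columns are called the p1 comparison cells. The labels gave both sets the same tissue and treatment, and named no animal, age or sort gate, so plate, animal and day cannot be told apart. The Il10 reporter marks cells in which the locus is or recently was active, and does not by itself select 1 T helper lineage.

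A naive CD4+ T cell circulates between blood and lymphoid organs. CCR7 lets it enter lymph nodes, and the sphingosine-1-phosphate receptor S1PR1 lets it leave. KLF2 drives transcription of S1pr1, and TCF-1 (Tcf7) and LEF1 maintain the naive, central memory and follicular helper programs. Effector cells lower these genes and raise cytokines, chemokine receptors of inflamed tissue and inhibitory receptors such as PD-1 (Pdcd1). IL-10 is an anti-inflammatory cytokine that many effector CD4+ T cells can make. Type 1 regulatory (Tr1) cells are IL-10 producers without Foxp3 that carry several inhibitory receptors.

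Kept p2 cells had a median of 321851 reads (range 171541 to 622997) and of 3643 genes with a read, and the p1 comparison cells had 353926 reads (162801 to 526166) and 3495 genes. The highest total left out was 157871 reads and the lowest kept was 162801. All cells of both sets had at least 10 reads of Cd3e, a subunit of the T cell receptor complex, and Cd4 reached 10 reads in 99.4% of p2 and 98.4% of p1 comparison cells. Of the list of 8 T cell genes, none differed 2-fold (of all gene rows tested, 4.5% were 2-fold higher and 4.13% lower). The median log2 ratio was -0.10. Markers of other cells were rare. The summed level of 6 B cell genes ranged from 0 to 2517 CPM (counts per 1000000 reads of a cell) per p2 cell and from 0 to 444 CPM per p1 comparison cell, with a median of 0 in both. Cd8a, the CD8 coreceptor, had 9 reads over all p2 cells and 2 over all p1 comparison cells. The medians were also 0 for the lists of epithelial, CD8 and NK, and erythroid and plasma cell genes. The 6 myeloid genes had medians of 158.5 CPM in p2 and 158.6 CPM in p1, nearly all of it from Cst3 and Cd68, and Lyz2 averaged 1.90 CPM in p2 cells and 0 in p1 comparison cells.

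With each set counted as 1 sample there is no replicate and no test between the sets. Levels are mean CPM over cells. A log2 ratio is log2 of (p2 mean CPM + 1) over (p1 mean CPM + 1), which understates the difference of low genes. Of 8845 gene rows with a mean CPM of at least 10 in either set, 398 (4.5%) were at least 2-fold higher in p2 cells and 365 (4.13%) were at least 2-fold lower, and the median ratio was 0.02. The ratio was above 0 for 52.3% of these rows and below 0 for 47.7%. As a scale for these shares, the other wells of p1 (columns 1 to 12, 94.3% of cells kept) were 2-fold higher than columns 13 to 24 for 1.94% of the same rows and lower for 3.27%. The 2 p1 sets were not like sets of cells. Foxp3 was far more common in columns 1 to 12 (given below), and the list of regulatory T cell genes had a median of 0.62 between them. Values between the p1 sets are thus not a measure of noise alone. The ratio was also computed within 4 matched blocks of wells (plate rows A to H or I to P, and the first or last 6 columns of the set), which held 44, 46, 43 and 46 p2 cells and 47, 46, 45 and 46 p1 comparison cells. Over all rows tested, 11.7% were higher in p2 in 4 of 4 blocks and 10.1% were lower in 4 of 4. Blocks of 1 plate are not replicates. Shares of cells are given with exact (Clopper-Pearson) 95% intervals, which cover counting error only, because several PCR reads can come from 1 molecule when no identifiers mark it.

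The genes of lymphoid recirculation and of the naive program were higher in p2 spleen cells. Ccr7 averaged 498 CPM in p2 cells and 85.5 CPM in the p1 comparison cells, a log2 ratio of 2.53. Single p2 cells ranged from 0 to 3704 CPM with a median of 3.35 CPM, and p1 cells from 0 to 2366 CPM with a median of 0, so the ranges of the sets overlapped. Ccr7 had at least 10 reads in 45.3% of p2 cells (81 cells, 37.8% to 52.8%) and in 11.4% of p1 comparison cells (21 cells, 7.21% to 16.9%). Among cells past 10 reads the mean was 1099 CPM in p2 and 747 CPM in p1, so that the sets were further apart in how many cells had Ccr7 than in its level within such cells. In p1 columns 1 to 12 the share was 7.18%, and in the small intestine it was 0.571%.

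Tcf7 averaged 662 CPM in p2 cells (median 235, highest 4161) and 195 CPM in the p1 comparison cells (median 0, highest 2734), a log2 ratio of 1.76. It reached 10 reads in 59.8% of p2 cells (52.2% to 67%) and in 31% of p1 cells (24.4% to 38.2%). Lef1, which encodes the partner factor of TCF-1, averaged 182.7 CPM (highest 1550) against 69.7 CPM (highest 1411), a log2 ratio of 1.38. Its shares of cells were 53.6% and 37.5%. Klf2 had the smallest difference of these 4 transcripts, at 157.1 CPM (highest 1064) against 88.6 CPM (highest 915) and a log2 ratio of 0.82, short of 2-fold. Its shares were further apart, 55.9% (48.3% to 63.3%) in p2 and 34.2% (27.4% to 41.6%) in p1. For each of the 4 genes both sets held cells without a read. The cells of p1 columns 1 to 12 were on the side of the other p1 cells for all 4, with mean levels of 113.2 CPM for Ccr7, 179.2 for Tcf7, 77.4 for Lef1 and 60.7 for Klf2.

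**Figure D1:**
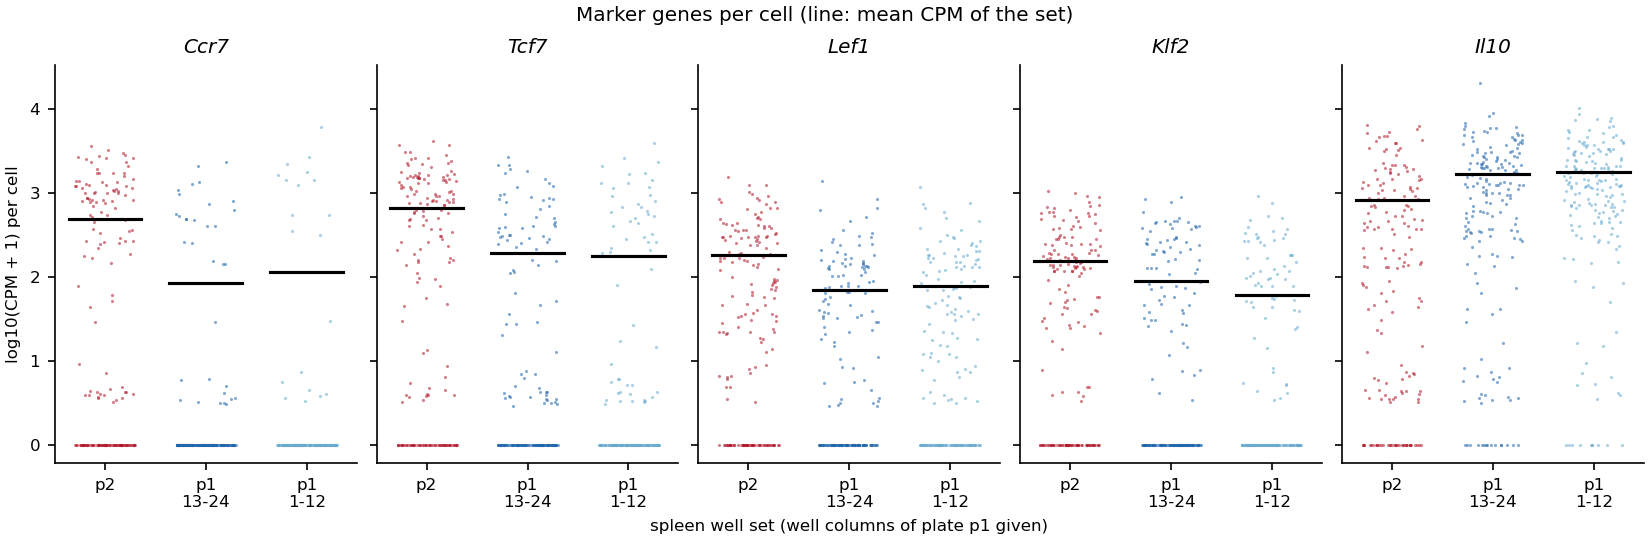
Each point is 1 cell, with log10(CPM + 1) of Ccr7, Tcf7, Lef1, Klf2 and Il10 on the y axis, for spleen p2 and for p1 columns 13 to 24 and 1 to 12, and the black line marks the mean CPM of the set. The mean of Ccr7 is 498 CPM in p2 against 85.5 and 113.2 CPM in the p1 sets, while that of Il10 is 843 against 1720 and 1790 CPM.

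Over all cells of each set, the difference ran through the list of 20 naive and central memory genes. All 20 had a ratio above 0, against 52.3% of all rows. Of the 20, 13 were at least 2-fold higher in p2 and 0 were 2-fold lower, against the 4.5% and 4.13% of all rows given above. The list was chosen with earlier results of these data known and holds Ccr7, Tcf7, Lef1 and Klf2. Its counts are therefore a description and no independent support. The median of the list was 1.30, and 0.10 between the well sets of p1. The largest ratio was that of Igfbp4, a secreted binding protein of insulin-like growth factors, at 3.91, but it came from few cells: 25 p2 cells (14%) and 4 p1 comparison cells (2.17%) reached 10 reads, and 1 p1 cell held 64.2% of the p1 reads. Bcl2, a survival factor of resting lymphocytes, averaged 160 CPM against 41.3 CPM and reached 10 reads in 36.3% against 17.9% of cells. Bach2, a repressor of effector differentiation, had a ratio of 1.82 (31.3% against 13.6% of cells), and Satb1, a chromatin organiser of T cells, one of 1.56 (73.2% against 43.5%). S1pr1 averaged 470 CPM (highest 2920) against 206 CPM (highest 2185), with 62% of p2 cells (54.5% to 69.1%) and 35.9% of p1 comparison cells (28.9% to 43.3%) past 10 reads.

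Not every member moved by the same measure. Il7r, the receptor chain through which resting T cells receive IL-7, averaged 595 CPM against 485 CPM, a ratio of 0.29, and its shares of 47.5% and 39.7% had overlapping intervals. Slamf6, a receptor kept by memory-like T cells, and Foxp1, a quiescence factor, had ratios of 0.69 and 0.85. Their shares were 77.7% (70.8% to 83.5%) against 51.1% (43.6% to 58.5%) and 83.8% (77.6% to 88.9%) against 63% (55.6% to 70%). How often shares of all gene rows were this far apart is not given here. After every cell was thinned to 160000 reads the shares were 44.1% and 11.4% for Ccr7, 57.5% and 27.7% for Tcf7, 46.9% and 31.5% for Lef1 and 48.6% and 28.3% for Klf2, so the order of the sets was the same at an equal number of reads. Thinned p2 cells still had more genes with a read, a median of 3464 against 3211.5.

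**Figure D2:**
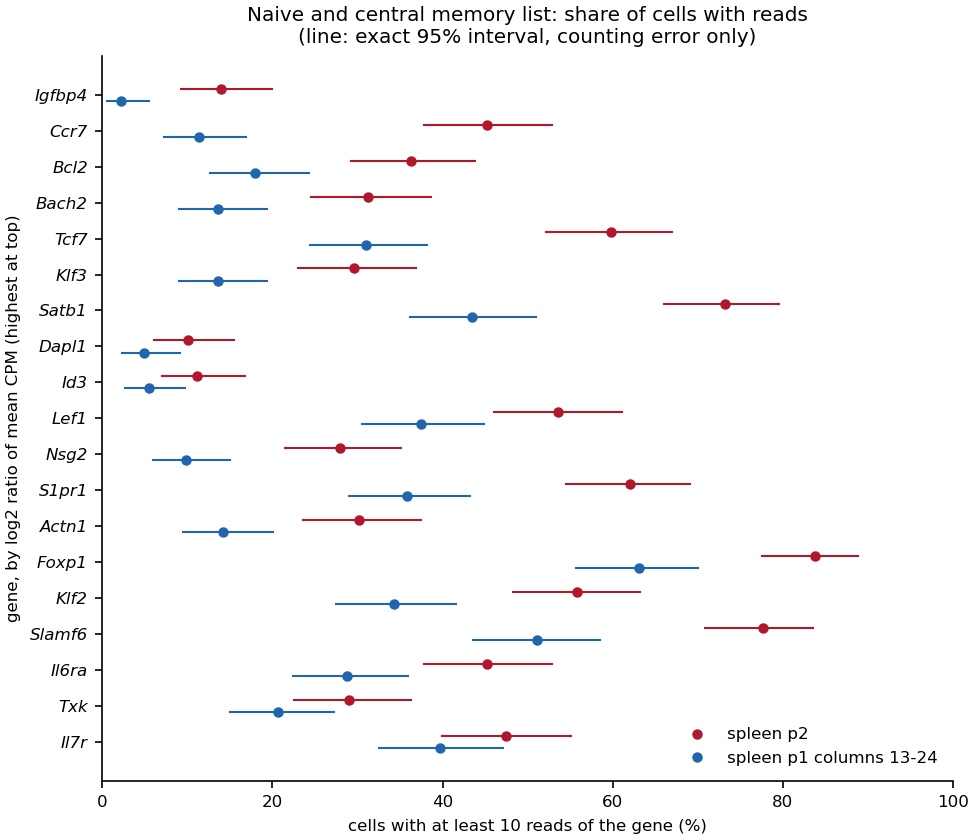
The x axis gives the percent of cells with at least 10 reads of each of 19 naive and central memory genes (1 of the 20 is not shown) in spleen p2 (red) and p1 columns 13 to 24 (blue), with exact 95% intervals as lines, and genes are ordered by their log2 ratio of mean CPM. The p2 point lies to the right for the 19 genes shown, and the intervals overlap for genes such as Il7r. At an equal number of reads p2 cells also had more genes with a read, a median of 3464 against 3211.5. How the shares ran over all gene rows is not given here.

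For Ccr7 and Tcf7 the shares of cells varied more over the blocks of p1 than over those of p2. In the 4 blocks of p2, the share of cells with 10 Ccr7 reads was 43.2%, 47.8%, 41.9% and 47.8%, a narrow range. In the p1 comparison cells it was 4.26% and 6.52% in rows A to H, and 22.2% and 13% in rows I to P. Tcf7 had the same layout, with 54.3% to 67.4% over the p2 blocks and 14.9%, 23.9%, 44.4% and 41.3% over those of p1. No p1 block reached the lowest p2 block for either gene. In mean level, Lef1 was also lower in the p1 blocks of rows A to H (32.9 and 53.7 CPM) than in those of rows I to P (90.2 and 103.1 CPM). Mean Il10 of p1 ran the other way, at 2369 and 1825 CPM against 1401 and 1264 CPM. The share with S1pr1 did not have this layout, at 36.2%, 39.1%, 40% and 28.3% over the p1 blocks. Mean Pdcd1 ran from 196 to 556 CPM over the p2 blocks and from 752 to 1043 CPM over those of p1. The median ratio of the list was 1.59 in rows A to H and 0.73 in rows I to P. In all, 13 of the 20 genes were higher in p2 in 4 of 4 blocks, against 11.7% of all rows. Il7r was not among them, since 1 block had a ratio below 0.

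The 4 marker genes were found together in single cells. At least 3 of Ccr7, Tcf7, Lef1 and Klf2 reached 10 reads in 82 p2 cells (45.8%, 38.4% to 53.4%), in 24 p1 comparison cells (13%, 8.54% to 18.8%) and in 16 cells of p1 columns 1 to 12 (8.84%). The share was 41.9% to 52.2% over the p2 blocks and 8.51% to 20% over the p1 blocks, with no overlap. It was 42.5% in p2 and 11.4% in p1 after thinning. No small intestine cell had 3, which allows a share of up to 1.71% by a limit of 3 counts, and of up to 2.09% by the exact interval. This class is a range of a count and not a cell type. In p2, 30 cells stood just below the limit with 2 genes and 36 just above it with 3, and 46 had all 4. Of the p2 cells with Ccr7, 92.6% also had Tcf7 and 82.7% Lef1, against 32.7% and 29.6% of p2 cells without Ccr7. Read the other way, 70.1% of the p2 cells with Tcf7 had Ccr7. In the p1 comparison cells only 35.1% of the cells with Tcf7 had Ccr7, although 20 of the 21 cells with Ccr7 had Tcf7.

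**Figure D3:**
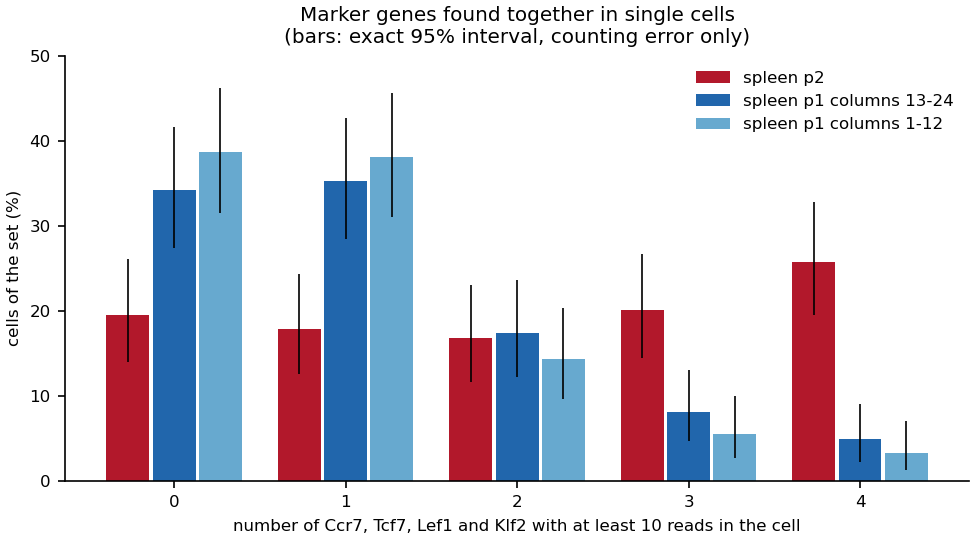
Bars give the percent of cells of each spleen set in which 0, 1, 2, 3 or 4 of Ccr7, Tcf7, Lef1 and Klf2 reached 10 reads, with exact 95% intervals (counting error only). All 4 genes were found in 25.7% of p2 cells, 4.89% of cells of p1 columns 13 to 24 and 3.31% of cells of p1 columns 1 to 12.

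Il10 was lower in p2 cells, although all cells had been sorted on its reporter. It averaged 843 CPM in p2 (median 168.6, highest 6502) and 1720 CPM in the p1 comparison cells (median 1026, highest 20384), a log2 ratio of -1.03. The gene reached 10 reads in 63.1% of p2 cells (55.6% to 70.2%), in 81.5% of p1 comparison cells (75.1% to 86.9%), in 88.4% of p1 columns 1 to 12 and in 94.9% of small intestine cells. No Il10 read at all was found in 36 p2 cells (20.1%, 14.5% to 26.7%) and in 15 p1 comparison cells (8.15%, 4.63% to 13.1%). Among cells past 10 reads the median was 716 CPM in p2 (quartiles 217 and 1779) and 1398 CPM in p1 (533 and 2801), so that the level within positive cells was lower as well. The ratio was -1.32 and -1.84 in the blocks of rows A to H and -0.19 and -0.82 in those of rows I to P, and it was -0.47 with rows I to P pooled. The p1 cell with the most Il10 held 7.87% of the p1 reads, and the p2 cell with the most held 6.24% of those of p2.

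Cells with 3 or 4 of the 4 marker genes held much less Il10 in both sets than cells with 0 to 2. In p2 cells of this class Cxcr5 reached 10 reads in 52.4% and Mki67 in 35.4%, against 37.1% and 49.5% of p2 cells with 0 to 2. Among cells with 3 or 4 of the markers, Il10 reached 10 reads in 39% of 82 p2 cells (28.4% to 50.4%) and in 45.8% of 24 p1 comparison cells (25.6% to 67.2%). With 0 to 2 markers, the shares were 83.5% of 97 cells (74.6% to 90.3%) and 86.9% of 160 cells (80.6% to 91.7%). Within both classes the intervals of the sets overlap. Mean levels were 250 and 800 CPM in the first class and 1345 and 1858 CPM in the other. When p2 cells were weighted to hold the same shares of 0, 1, 2, 3 and 4 markers as the p1 comparison cells, their Il10 mean was 1202 CPM and the log2 ratio -0.52. The remaining difference of Pdcd1 was then -0.50 and that of S1pr1 0.55. This weighting describes the cells measured, and what makes p2 hold more cells with these markers was not tested. Without the 4 markers, the naive list was lower in p2 among cells with 0 markers, a median ratio of -0.33 (35 p2 and 63 p1 comparison cells). The median was 0.46 among cells with 1 or 2 markers and 0.68 among those with 3 or 4.

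All 17 genes of the list of Il10 and its regulators had a ratio below 0, against 47.7% of all rows, with a median of -0.41 (-0.13 between the p1 sets). Of the 17, 3 were 2-fold lower, against 4.13% of all rows, and 6 were lower in all 4 blocks, against 10.1%. Beside Il10 itself, those past 2-fold were Nfil3, a basic leucine zipper factor, at -1.11 (76.1 against 165.8 CPM, 25.7% against 42.4% of cells), and Ahr, the aryl hydrocarbon receptor, at -1.08 (54.8 against 116.8 CPM, 19.6% against 30.4%). Prdm1, which encodes the effector factor Blimp-1, was at -0.55 (44.7% against 60.9% of cells). Maf, which binds the Il10 locus, was at 564 CPM against 624 CPM, a ratio of -0.14. Of these regulators Nfil3 and Prdm1 were lower in all 4 blocks, while Ahr and Maf were not.

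Among 12 co-inhibitory and Tr1 surface genes past 10 CPM, 10 had a ratio below 0, against 47.7% of all rows, and 2 were 2-fold lower, against 4.13%, with a list median of -0.50 (-0.01 between the p1 sets). Pdcd1 averaged 407 CPM (median 91.9, highest 7104) in p2 and 847 CPM (median 627, highest 4318) in the p1 comparison cells, a ratio of -1.06, and reached 10 reads in 51.4% (43.8% to 58.9%) against 81% (74.6% to 86.4%) of cells. Cd226, the activating receptor that competes with TIGIT for ligand, was at -1.11 in few cells (8.38% against 15.8%), and Lilrb4, whose reads may be split with a close paralog, was at -1.0 (23.5% against 34.8%). The common receptors stayed common: Lag3 was past 10 reads in 95% of p2 and 98.9% of p1 comparison cells (2051 against 2903 CPM), Ctla4 in 93.9% and 98.4% (2628 against 3817 CPM) and Tigit in 84.4% and 96.7%. Btla, an inhibitory receptor also found on naive and follicular T cells, went the other way at 0.62 (415 against 270 CPM, 58.1% against 42.4% of cells), as did Cd200 at 0.24. Among p2 cells with 3 or 4 of the 4 marker genes, Lag3 still reached 10 reads in 90.2% and Ctla4 in 92.7%, but Tigit in 68.3% and Pdcd1 in 24.4%. In the p1 comparison cells of that class Tigit reached 10 reads in 91.7% and Pdcd1 in 50% of 24 cells.

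The lists of helper subsets had medians below 0 in p2, each closer to 0 than the median between the p1 sets. Of 13 Th1 and chemokine genes 11 were lower, against 47.7% of all rows, with a median of -0.55. The median between the p1 sets, which differ in their share of Foxp3 cells, was -0.60 on this list, and the p2 difference was no larger. Tbx21, the Th1 factor T-bet, was at -0.85 (48.6% against 63.6% of cells), Cxcr6, a receptor of tissue-homing effector cells, at -0.93 (38% against 53.8%), and Cxcr3 was higher at 0.47. Ly6c2, a surface protein with close paralogs, was at 1.003 (30.2% against 20.1%), and the chemokine gene Xcl1 was at -1.37, with 1 p1 comparison cell at 10 reads or more. Of 10 follicular helper genes 6 had a ratio below 0, against 47.7% of all rows, with a median of -0.14 (-0.26 between the p1 sets). Among them Cxcr5, the B cell follicle receptor, was higher at 0.71 (44.1% against 29.3%), and Pou2af1, a coactivator of octamer factors, at 1.05 (17.3% against 8.15%). The cytokine genes of that list were lower, Il21 at -0.86 (36.9% against 55.4%) and Il4 at -3.26, where 17 p1 comparison cells and 4 p2 cells passed 10 reads. In p1 columns 1 to 12 Il4 was at 3.49 CPM, close to the 2.59 CPM of p2, and not to the 33.4 CPM of columns 13 to 24. All 5 Th17 genes were lower, against 47.7% of all rows, with a median of -1.54, led by Il23r (-3.13) and Il17f (-2.50). However, the p1 sets differed by a median of -3.05 on this list. Il17f came from few cells, with at least 10 reads in 0.559% of p2 and 1.09% of p1 comparison cells.

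Foxp3, the regulatory T cell factor, was past 10 reads in 8 p2 cells (4.47%, 1.95% to 8.62%) and 28 p1 comparison cells (15.2%, 10.4% to 21.2%), and in 57.5% of p1 columns 1 to 12. Of 11 regulatory T cell genes 10 had a ratio below 0, against 47.7% of all rows, with a median of -0.44. The median between the p1 sets was 0.62 on this list, further from 0 than the p2 difference. Il2ra, the high-affinity IL-2 receptor chain, was at -0.90 and lower in all 4 blocks, and Gpr83, an orphan receptor of such cells, was higher at 1.06 in 6.7% of p2 cells. Without cells that had any Foxp3 read, the median of the naive list was 1.20 and the Il10 ratio was -1.11. Against p1 columns 1 to 12, where Foxp3 reads were common, the naive median was 1.15 and the Il10 ratio was -1.08.

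Chaperones and enzymes of the endoplasmic reticulum, which fold secreted and membrane proteins, were lower in p2 by small steps that recurred over the plate. Of 12 genes 11 had a ratio below 0, against 47.7% of all rows. In all 4 blocks 8 were lower, against 10.1% of all rows, while 0 were 2-fold lower, against 4.13% of all rows. The list median was -0.62, between -0.39 and -0.81 over the blocks, and -0.10 between the p1 sets. Hspa5, which encodes the chaperone BiP, averaged 554 CPM (median 436, highest 3428) against 1052 CPM (median 795, highest 7411), a ratio of -0.92. Xbp1, a factor of the unfolded protein response, and Sdf2l1, a cofactor of BiP, were at -0.79 each. Pdia3, a disulfide isomerase, was the exception at 0.09. Among cells with 3 or 4 of the 4 marker genes Hspa5 averaged 480 CPM in p2 and 983 CPM in p1. Among cells with 0 to 2 it averaged 617 and 1062 CPM. After weighting to the p1 marker numbers its ratio was -0.75.

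Of 16 cell cycle genes 15 had a ratio above 0, against 52.3% of all rows, with a median of 0.34. None of them passed 2-fold, against 4.5% of all rows higher and 4.13% lower. Cells called S or G2M made up 31.8% of p2 cells (25.1% to 39.2%) and 21.2% of p1 comparison cells (15.5% to 27.8%). Mki67, a marker of cycling cells, was past 10 reads in 43% against 36.4% of cells (40.8% against 34.2% after thinning), and Top2a, a topoisomerase of dividing cells, in 43.6% against 38%, all with overlapping intervals. In 1 of 4 blocks the list median was below 0. Without cells called S or G2M the naive median was 1.25. Of 15 early genes of T cell receptor signalling past 10 CPM, 6 had a ratio above 0 and 9 below 0, with a median of -0.14. Of the 15, 3 were 2-fold lower, against 4.13% of all rows, and 0 were 2-fold higher, against 4.5%. These 3 were Nr4a2 (-2.75), Egr2 (-1.06) and Fosb (-1.30), found in 1.68%, 12.8% and 6.15% of p2 and 7.61%, 16.3% and 10.9% of p1 comparison cells. The more common Nr4a1, an immediate readout of receptor signalling, reached 10 reads in 24.6% of p2 and 47.3% of p1 comparison cells with a ratio of -0.47. Interferon-stimulated genes (median -0.12, led by Rsad2 at -0.68, Mx1 at -0.63 and Ifit1 at -0.59) and glycolysis genes (median 0.17, led by Tpi1 at 0.28, Gpi1 at 0.26 and Slc2a1 at 0.25) had 0 genes past 2-fold. Since only 4.5% of all rows were 2-fold higher and 4.13% lower, a count of 0 in lists this short is no finding. Gapdh and Pgk1, which have many pseudogenes, were counted at only 64.4 and 21.2 CPM in p2, so that their values are uncertain.

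**Figure D4:**
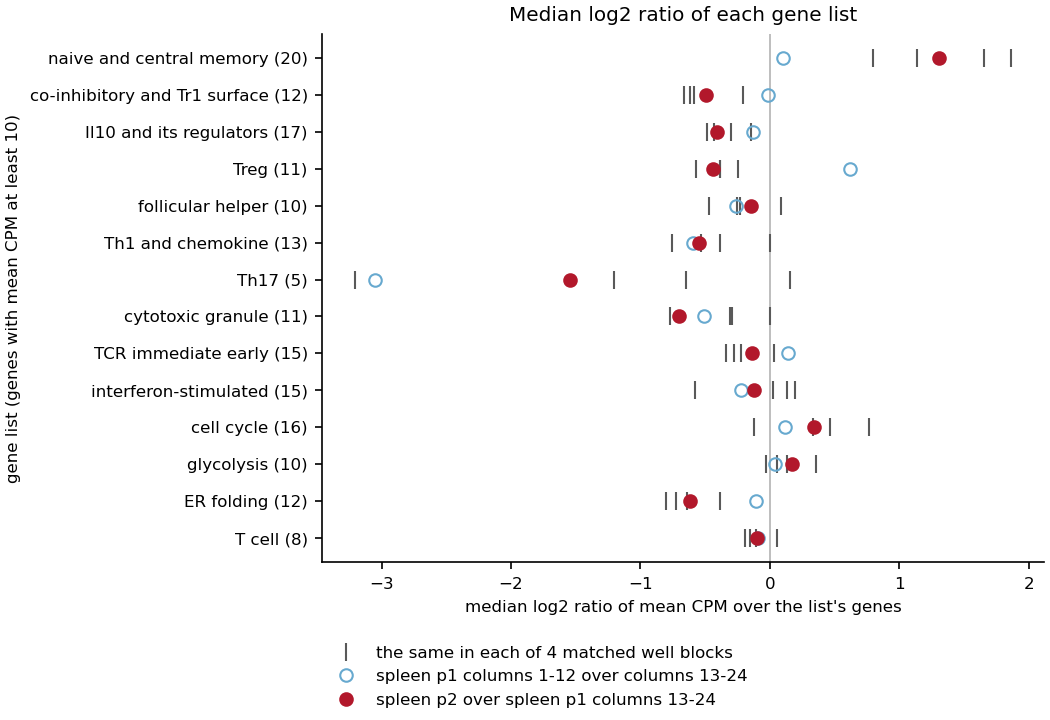
The x axis gives the median log2 ratio of mean CPM over the genes of each list (number with mean CPM of at least 10 in brackets), for p2 over p1 columns 13 to 24 (red), in each of 4 matched well blocks (ticks) and for p1 columns 1 to 12 over columns 13 to 24 (open circles). The naive and central memory list stands at 1.30 with its lowest block tick at 0.79, and ER folding at -0.62 with its highest tick at -0.39.

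Over all single-gene rows, 556 were higher in p2 in 4 of 4 blocks with at least 10 reads in 25% of p2 cells and a ratio larger than that between the p1 sets, and 471 met the mirrored rule. The rule set a lowest share for the higher set only, so the shares of the genes it picked describe them and are no separate result. Of the 12 with the largest ratio toward p2, Ccr7, Bcl2, Bach2, Tcf7, Klf3 and Satb1 belong to the naive list, which was not chosen independently of these data. Klf3 encodes a Krueppel-like repressor (1.75, 29.6% against 13.6% of cells). The others were led by Rpap3, a cochaperone of RNA polymerase assembly (2.01, 28.5% against 12.5% of cells). Txnip, a thioredoxin-binding protein that restrains glucose uptake, averaged 821 CPM against 297 CPM, and Pik3ip1, an inhibitor of PI3 kinase, 148.9 CPM against 50.6 CPM. H2afz, a histone variant gene with pseudogenes (1.76), Rnf138, a ubiquitin ligase (1.67), and Dtnb, a dystrobrevin (1.58), completed the 12.

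Of the 12 with the largest ratio toward p1, Ccr8, a chemokine receptor of activated and skin-homing T cells, was the most abundant, at 135.6 CPM (highest 2199) in p2 and 498 CPM (highest 5845) in the p1 comparison cells, a ratio of -1.87. It reached 10 reads in 31.3% (24.6% to 38.6%) against 47.8% (40.4% to 55.3%) of cells. Ero1l, the oxidase that recharges disulfide isomerases in the endoplasmic reticulum, was at -1.83, with 1 p1 cell holding 20.1% of the p1 reads, and Hsph1, a cytosolic chaperone, at -1.35. The remaining 9 were Banp (-1.89), Hip1 (-1.81), Arhgap31 (-1.61), Padi2 (-1.50), Cers4 (-1.49), Gdap2 (-1.48), Lrba (-1.37), Nabp1 (-1.34) and Kap (-1.32). Lrba is of known interest in T cells because it keeps CTLA-4 from degradation. Each of these 9 was past 10 reads in 10.1% to 26.8% of p2 cells and in 25% to 40.8% of p1 comparison cells. The floor of 25% was set by the rule for the p1 comparison cells alone, so the gap between these shares follows in part from it.

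Granzyme reads on p2 had to be read by their number per cell. Gzma, a granule protease, had a log2 ratio of 3.23 (120 against 12 CPM), the largest of the cytotoxic list toward p2. Of the p2 cells, 75.4% had 1 to 9 Gzma reads (68.4% to 81.5%), against 7 of the p1 comparison cells (3.8%) and 2 cells of p1 columns 1 to 12 (1.1%). These p2 cells held 326 reads in all, and cells under 10 reads gave only 6.01 of the 120 CPM. At 10 or more reads there were 16 p2 cells (8.94%, 5.2% to 14.1%) and 8 p1 comparison cells (4.35%, 1.9% to 8.39%), whose intervals overlap. No p2 cell had 10 to 19 reads, 10 cells had at least 100, and 1 cell held 29.8% of all p2 Gzma reads. The 1 to 9 class therefore stood apart from the cells with many reads.

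In the other columns of the same plate, small intestine cells held 2053130 Gzma reads, with a mean level of 35611 CPM, and none of them was without a read. The 326 reads of the low p2 cells come to 0.0159% of these. Low reads were found in all 16 plate rows and all 12 well columns of the p2 spleen cells. Over rows, the mean number of Gzma reads in p2 cells under 10 ran from 1 to 5 (median 1.92), and its Spearman correlation with the mean Gzma reads of the small intestine cells in the same row was 0.78 (16 rows that share 1 plate, given as a description). Over well columns it ran from 1.08 to 2.87. For Gzmb, 92 p2 cells had 1 to 9 reads (51.4%) against 47 p1 comparison cells (25.5%), and the same correlation over rows was 0.38. At 10 or more reads Gzmb was found in 34.1% of p2 cells (27.2% to 41.5%) and 39.1% of p1 comparison cells (32% to 46.6%), so that the order of the sets turned between the low and the high class. The source of the low reads was not tested.

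A search for genes with at least 200 CPM in small intestine cells and at most 1 in 50 of that in p1 spleen cells, made without p2 spleen values, gave 4 genes, among them Gzma and far less abundant genes such as the cytokine gene Il17f and the receptor gene Gpr34, at 665 and 207 CPM in the small intestine. In p2 spleen cells 1 to 9 reads of Il17f and Gpr34 were found in 4.47% and 2.79% of cells. The shares were 1.63% and 1.09% in the p1 comparison cells, and 0% and 0.552% in p1 columns 1 to 12. Of the other 10 cytotoxic genes past 10 CPM, Klrg1, a receptor of terminal effector cells, was at -4.58, with 29 reads in p2 and 1755 in p1 comparison cells, where 12 cells (6.52%) passed 10 reads. Prf1 (-1.10), which encodes perforin, Fasl (-1.15), the death receptor ligand, and the NK-type receptor gene Klrd1 (-1.09) were also past 2-fold. They reached 10 reads in 9.5%, 14.5% and 3.91% of p2 and 13%, 23.9% and 7.07% of p1 comparison cells. Of all 11 cytotoxic genes past 10 CPM, Gzma included, 4 were 2-fold lower, against 4.13% of all rows. The list median was -0.70, between -0.77 and 0 over the blocks, and -0.51 between the p1 sets. Nkg7, a granule membrane protein, averaged 1724 CPM (median 7.90) against 3056 CPM (median 1866), with 46.4% (38.9% to 54%) against 67.4% (60.1% to 74.1%) of cells past 10 reads.

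**Figure D5:**
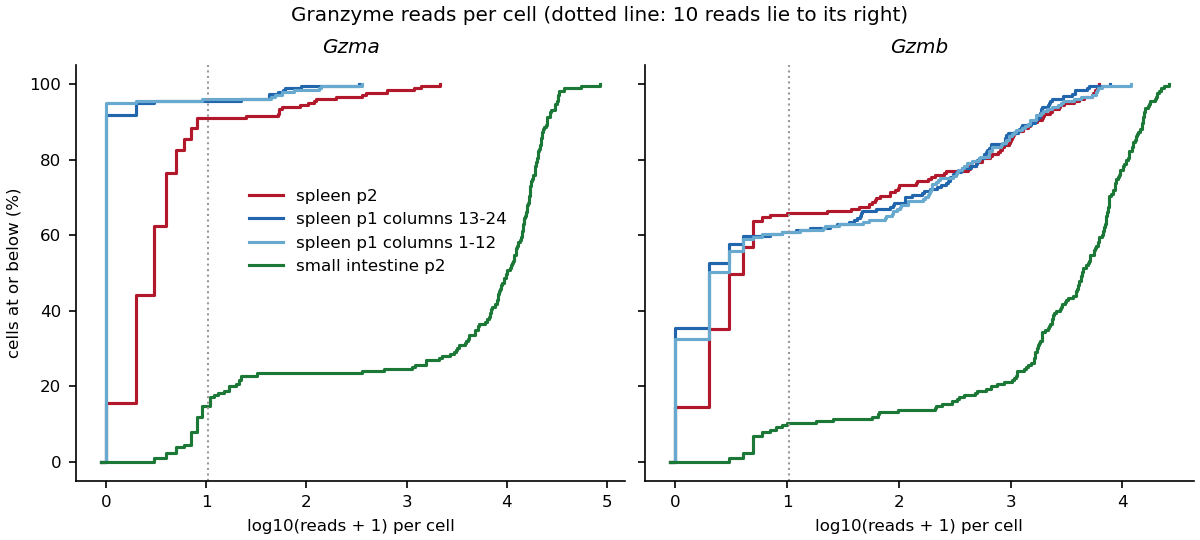
Curves give the percent of cells at or below each number of reads of Gzma (left) and Gzmb (right), as log10(reads + 1), for the 3 spleen sets and the small intestine cells, and the dotted line separates 9 from 10 reads. For Gzma, 84.4% of p2 cells have at least 1 read and 91.8% of the cells of p1 columns 13 to 24 have none, while the shares to the right of the line are 8.94% and 4.35%.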

How the data were processed

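Per the authors, STAR placed the read pairs on the mouse genome in 2 passes, and the deposited table gives raw counts for each gene row with a column per cell. Their methods and the labels name different genome builds, and the counting tool and annotation are not given in the sources used here, so no coordinates are printed. The table held 23997 gene rows, of which 88 join several genes, and the reporter row, which was left out. Of the columns given, 0 were left unused and 0 were identical to another.

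CPM, the counts per 1000000 reads of a cell, was computed here from the deposited counts for cells with at least 160000 reads (Python 3.11.15, numpy 2.4.6). Plate and well came from the sample titles. Each set is 1 sample because each GEO sample is 1 cell and no animal is named, so no p-value was computed, and no doublet caller was run on cells sorted 1 per well. Cells called S or G2M for an alternative came from cyclone (scran 1.30.0, 635 of 667 marker genes matched). Scaling alternatives used edgeR 4.0.16 and DESeq2 1.42.0 factors of the summed counts. Other alternatives changed the pseudocount, the filters, the depth, the plate rows and the comparison wells. The script was tested on simulated data.

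The well sets and the gene lists (19 lists of 217 entries) were chosen with earlier results of these data known. Izumo1r and Jchain were found under the older symbols Folr4 and Igj. Genes were named by rule: the 5 markers, the 3 largest ratios of each list with a mean CPM of at least 10, and the 12 largest ratios each way over genes with at least 10 reads in 25% of cells of the higher set, the same sign in 4 of 4 blocks and a ratio larger than that between the p1 sets, plus Gzma, Gzmb and the small intestine genes. Other list members in the text were chosen after their values were seen. Some genes are not reported here.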

Additional observations from a re-analysis of the deposited data

Results flagged for a closer look

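The eGFP reporter row entered none of the comparisons above. At least 1 reporter read was found in 51.4% of the p2 spleen cells (43.8% to 58.9%) and in 60.3% of the cells of p1 columns 13 to 24 (52.9% to 67.4%), and the intervals overlap. All cells had been sorted on this reporter, so that its presence is no finding. At 10 or more reads the shares were 37.4% (30.3% to 45%) and 51.1% (43.6% to 58.5%). Of the 36 p2 cells without an Il10 read, 1 had a reporter read, as had 1 of the 15 such p1 cells.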

How the results depend on the processing

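No paired analysis was possible because each set of wells is 1 sample and no result comes from a test. The genes 2-fold higher and lower in p2, 4.5% and 4.13% of those tested, became 1.28% and 1.504% under a pseudocount of 10 CPM. With a mean CPM filter of 1 they were 8.48% and 7.84% (996 and 921 of 11740 genes), and with no filter on low values the counts were the same and the shares 4.15% and 3.84%. In plate rows A to H alone they were 9.63% and 7.04%, and in rows I to P 6.86% and 7.26%, where each mean rests on fewer cells. The naive median was 0.73 in rows I to P. Counting cells with at least 1 read in place of 10 gave 55.9% for Ccr7, 79.9% for Il10, 59.2% for at least 3 markers and 84.4% for Gzma. The other alternatives for the naive median and the Il10 ratio kept the direction, between 1.06 and 1.59 and between -1.54 and -0.47. With TMM or DESeq2 factors 349 or 357 genes were higher and 387 or 382 lower, so that the larger count changed sides. Of 71 single genes named by rule and set under 12 alternatives, 55 kept their sign in all, and of the 48 past 2-fold 41 did. Against p1 columns 1 to 12, Egr2 (0.21), Gpr83 (-1.35), Il17f (1.07), Il23r (0.18), Klrk1 (2.85) and Xcl1 (2.21) turned. Klrk1 also turned without cells called S or G2M (0.068) and in rows I to P (0.30), as did Il17f in rows I to P (1.11). Xcl1 kept its sign in only 10 of the 12 alternatives. The cause of these shifts was not tested. The source of reads at 1 to 9 per cell was not tested.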
